A study of Homo sapiens with 5 samples.

Results

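The 42 genes described here encode the machinery that brings proteins into the endoplasmic reticulum (ER), folds them and signals when folding fails. They were chosen by name, as genes of ER folding, translocation, signal peptide cleavage, N-glycosylation and the unfolded protein response, and all 42 had a row among the 24497 gene rows of the count table. Counts came from HEK293 cells, an established human embryonic kidney line, grown in DMEM with glutamine and fetal calf serum, and the labels name no treatment, genotype or time point for any library. Sequencing captured the 5' ends of oligo-dT-primed cDNA, and the product of 100 cells from a lysate of 1000 was amplified over 18 PCR cycles for each library. The 5 libraries fall into batch A (2 libraries) and batch B (3 libraries), a division that the labels give along with a run name for each batch, and both batches carry the same protocol text. Libraries are called by the number that ends their column (2 and 3 in batch A, 1, 2 and 3 in batch B). Between run name and number, each of the 5 column names carries the tag rG3_tween. All libraries share this tag, so any effect of what it stands for could not be tested.

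Secretory and membrane proteins enter the ER through the Sec61 channel while they are being made. Signal peptidase then cuts off the leader peptide, the oligosaccharyltransferase adds sugar chains, and Hsp70, Hsp90 and lectin chaperones fold the chain together with enzymes that form disulfide bonds. When unfolded proteins build up, the sensors IRE1 (gene ERN1), PERK (EIF2AK3) and ATF6 start the unfolded protein response, in which ATF6 and the spliced form of XBP1 raise transcription of chaperone genes through ER stress elements in their promoters.

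The libraries held 373687 to 803168 gene counts, from batch B library 1 (the shallowest) to batch A library 3 (the deepest), and values are given as CPM, the standard depth-scaled count, taken relative to the gene counts of the library without spike-ins. Spike-in RNA, which the protocol text of both batches describes, had 1785 and 2127 counts in batch A libraries 2 and 3 but 13, 1 and 19 in batch B libraries 1, 2 and 3. The part of this gap in the differences described below was not tested. The 8 genes set as characteristic of HEK293, led by VIM, all had counts, summing to 817 to 845 CPM in batch A and 911 to 929 CPM in batch B. Of 16 markers of blood, fibroblast, endothelial, liver, red and pancreatic cells, only 9 had a row in the count table. No endothelial, red cell or pancreatic marker had one, so those cell types were not checked. The 9 summed to 6 to 21 counts per library, or 8.74 to 16.2 CPM in batch A and 18.7 to 31.3 CPM in batch B. CD3E, COL1A2 and ALB were at 0 in every library. Both marker sums were higher in batch B, and their part in the results below was not tested. The 8 HEK293 genes summed to 347 to 679 counts per library, of which VIM gave 205 to 343 and PAX2 1 to 4. The higher HEK293 sum in batch B therefore does not speak for each of the 8 genes. In such bulk libraries fewer cells with a transcript and less of it per cell cannot be told apart, and separate cultures are not named in the labels, so a p-value here reflects the scatter among 5 libraries and possibly technical scatter alone.

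Promoter sequences are shown first because many of the chaperone genes share a short element there. The genes were chosen in part for their role in the unfolded protein response, which acts through this element, so its frequency among them is a description and not independent of the choice. RefSeq promoter windows (GRCh38.p14, 250 bases before to 50 after a start) were at hand for 39 of the 42 genes. They were searched on both strands for ERSE, spelled CCAAT, 9 bases of any kind and CCACG, whose CCAAT end is bound by NF-Y and whose CCACG end is bound by ATF6 and XBP1, and for the shorter ERSE-II, spelled ATTGG, 1 base of any kind and CCACG. Both spellings end in CCACG, but no gene held both elements. ERSE was found for 7 of the 39 genes (17.9%), against 25 of 27305 RefSeq genes (0.0916%), and ERSE-II for 3 (7.69%), against 19 (0.0696%). Together, 10 of the 44 RefSeq genes with either element were members of the set, which is 25.6% of the 39 and 22.7% of the 44. Of 95 related ER genes with a window, listed below, 2 held an element, namely ERO1LB, an ER oxidase, and SERP1, a translocon-associated stress protein. These matches are descriptions of letters, not measurements of binding. Variant spellings and bases outside the windows were not searched, so a gene without a match may still hold such an element. The elements are printed on the gene's own strand, 5′ to 3′, in capitals with 20 bases on each side, for 9 of the 10 genes.
HSPA5, chr9:125241371-125241429, minus strand: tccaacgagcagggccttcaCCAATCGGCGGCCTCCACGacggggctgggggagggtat
HSP90B1, chr12:103930196-103930254, plus strand: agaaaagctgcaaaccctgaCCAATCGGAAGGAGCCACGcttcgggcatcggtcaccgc
HSP90B1, chr12:103930301-103930359, plus strand: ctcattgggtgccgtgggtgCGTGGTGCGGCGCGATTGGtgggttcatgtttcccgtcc
CALR, chr19:12938364-12938422, plus strand: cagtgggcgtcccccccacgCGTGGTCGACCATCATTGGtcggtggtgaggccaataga
PDIA6, chr2:10812833-10812891, minus strand: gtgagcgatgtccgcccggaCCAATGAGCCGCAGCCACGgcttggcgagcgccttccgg
CRELD2, chr22:49918534-49918592, plus strand: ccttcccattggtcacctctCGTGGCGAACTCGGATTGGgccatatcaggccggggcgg
XBP1, chr22:28800583-28800641, minus strand: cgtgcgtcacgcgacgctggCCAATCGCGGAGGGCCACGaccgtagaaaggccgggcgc
HYOU1, chr11:119057360-119057410, minus strand: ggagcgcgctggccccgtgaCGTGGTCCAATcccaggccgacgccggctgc
HYOU1, chr11:119057254-119057304, minus strand: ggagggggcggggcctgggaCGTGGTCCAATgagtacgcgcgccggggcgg
SDF2L1, chr22:21642094-21642144, plus strand: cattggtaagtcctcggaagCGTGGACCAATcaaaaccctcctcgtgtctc
HERPUD1, chr16:56932005-56932055, plus strand: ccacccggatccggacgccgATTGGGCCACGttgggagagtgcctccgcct

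In HSPA5 the first base of the element lay 66 bases before the annotated start, in PDIA6 86, in XBP1 52 and in HERPUD1 117. CRELD2, CALR, HYOU1, SDF2L1 and the second element of HSP90B1 read in the opposite orientation, so that their capitals begin with CGTGG. The element of CANX, which is not printed, spans an annotated start. The 10 genes with an element ranged from 69.3 CPM for CRELD2 to 615 CPM for CANX, with a median of 229 CPM. The 29 without one ranged from 7.08 CPM for ERN1 to 680 CPM for SSR4, with a median of 173 CPM, so that the levels of both sets overlapped widely.

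All 42 genes had counts in all 5 libraries. The mean over libraries was at least 100 CPM for 31 of them, and 21 were among the 1000 most abundant genes. DNAJB9, EIF2AK3 and ERN1 were under 20 CPM. Because reads mark transcript 5' ends, counts were not divided by length, but an oligo-dT-primed cDNA must run the whole transcript to be captured. Over the 42 genes, mean CPM and transcript length had a Spearman correlation of -0.494, a description over genes that share their libraries, and the plot of levels shows the genes in the order of CPM. Divided by transcript length in kb, CPM still put XBP1, SEC61B, SSR4, SPCS1 and DAD1 first in 5 of the 8 role groups. In the others CALR, SDF2L1 and PPIB replaced CANX, DNAJB11 and PDIA6, so an order of levels between genes of unlike length depends on this choice.

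**Figure D1:**
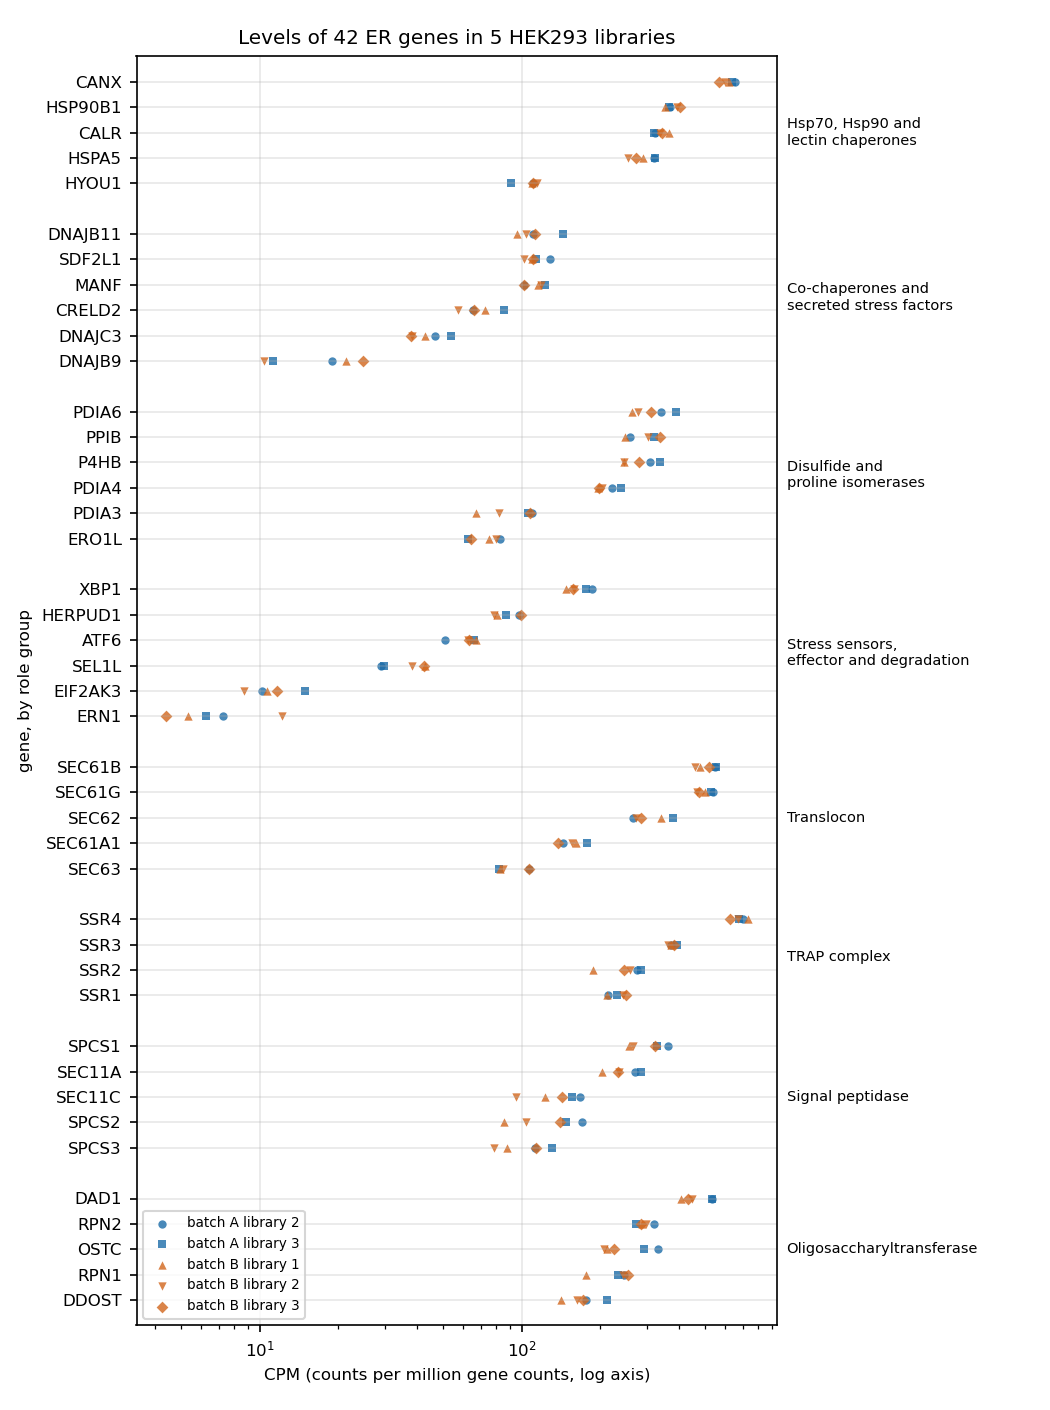
Level of each of the 42 ER genes in each library, as CPM on a log axis, with genes ordered by mean CPM within their role group and 1 symbol per library (blue for batch A, orange for batch B). Of the 42 genes 31 average at least 100 CPM, while ERN1, EIF2AK3 and DNAJB9 lie lowest, all under 20 CPM.

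Among the chaperones, CANX (calnexin, the membrane-bound lectin that holds glycoproteins during folding) was highest on the CPM scale, at 652 and 635 CPM in batch A libraries 2 and 3 and 621, 600 and 565 CPM in batch B libraries 1, 2 and 3. Every library of CANX lay above every library of the other 4 chaperones. HSP90B1 (GRP94, the ER form of Hsp90) had 368 and 366 CPM in batch A and 353, 391 and 401 CPM in batch B, so the batches overlapped. CALR, the soluble lectin calreticulin, had 322 and 321 CPM in batch A and 364, 337 and 343 CPM in batch B, all 3 above batch A by a small margin. HSPA5 (BiP, the Hsp70 of the ER and a repressor of the stress sensors) went the other way, with 320 and 324 CPM in batch A and 292, 254 and 273 CPM in batch B. HSP90B1 exceeded HSPA5 in each library, by a count ratio of 1.13 to 1.54. HYOU1, a large Hsp70 relative that helps BiP exchange nucleotide, was the lowest, at 90.9 to 115 CPM. None of the 5 passed the test described below.

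Co-chaperones stood lower than the chaperones they serve. DNAJB11, an Hsp40 partner of BiP, had 111 and 144 CPM in batch A and 96.3, 104 and 112 CPM in batch B. SDF2L1, found in complex with DNAJB11, had 128 and 113 CPM in batch A and 110, 102 and 111 CPM in batch B. Together with MANF, a secreted ER stress factor at 102 to 123 CPM, they could not be ordered, since their libraries overlapped. CRELD2, another secreted stress factor, followed at 57.3 to 85.9 CPM and DNAJC3, an inhibitor of PERK, at 38.0 to 53.5 CPM. DNAJB9, an Hsp40 that keeps IRE1 in check, gave 13 and 9 counts in the batch A libraries against 8, 6 and 17. Its batch sums amounted to 14.8 CPM in batch A (95% exact Poisson interval 9.25 to 22.4) and 19.0 CPM in batch B (12.9 to 26.9), which overlap. Intervals here cover counting error only.

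Of the enzymes for disulfide bonds and proline isomerization, PDIA6, a disulfide isomerase, had 339 and 389 CPM in batch A and 265, 278 and 312 CPM in batch B. PPIB, the ER cyclophilin, had 259 and 321 CPM in batch A and 249, 304 and 339 CPM in batch B. P4HB, the classical disulfide isomerase PDI, ranged from 245 to 336 CPM. PDIA6 lay above P4HB in each of the 5 libraries, while PPIB could not be ordered against either. PDIA4 was between 195 and 240 CPM. PDIA3, which works on glycoproteins held by calnexin and calreticulin, was between 66.9 and 109 CPM. ERO1L, the oxidase that recharges the isomerases, was between 62.2 and 83.0 CPM. PDIA6, P4HB and PDIA4 were lower in each batch B library than in either batch A library, whereas PPIB, PDIA3 and ERO1L overlapped.

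Of the sensors, ERN1 and EIF2AK3 were the least abundant genes of the set. ERN1 gave 5 and 5 counts in the batch A libraries against 2, 7 and 3, and EIF2AK3 had 7 and 12 against 4, 5 and 8. These 2 did not reach the count filter and were not tested. Batch sums were 6.71 CPM (3.22 to 12.3) and 7.34 CPM (3.79 to 12.8) for ERN1 and 12.8 CPM (7.68 to 19.9) and 10.4 CPM (6.06 to 16.7) for EIF2AK3, with exact Poisson intervals that overlap widely, so a difference was not detectable at this depth. ATF6, the sensor that is itself a transcription factor, had 51.0 and 66.0 CPM in batch A and 66.9, 62.6 and 62.8 CPM in batch B. XBP1, the transcription factor that IRE1 activates by splicing, had 186 and 177 CPM in batch A and 147, 158 and 158 CPM in batch B. Counts per gene do not separate its spliced from its unspliced form. HERPUD1, a membrane protein of ER-associated degradation, ranged from 78.2 to 99.2 CPM. SEL1L, the adaptor of the HRD1 ubiquitin ligase, had 29.1 and 29.9 CPM in batch A and 42.8, 38.2 and 42.3 CPM in batch B, higher in all 3, on 16 to 29 counts per library.

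In the translocon, SEC61B and SEC61G, the small subunits of the channel, had nearly equal counts in every library, at ratios of 0.952 to 1.10. SEC61B had 546 and 553 CPM in batch A and 479, 459 and 521 CPM in batch B. SEC61G had 537 and 530 CPM in batch A and 503, 466 and 474 CPM in batch B. SEC61A1, the pore-forming subunit, gave fewer 5' ends, and SEC61B exceeded it by a count ratio of 2.933 to 3.798. Annotated transcripts of the 2 genes are 545 and 3635 bases long. SEC62, which serves post-translational import, ranged from 266 to 377 CPM and its partner SEC63 from 82.2 to 107 CPM. The translocon-associated protein (TRAP) complex, which assists some leader peptides, was led by SSR4, at 697 and 676 CPM in batch A and 731, 667 and 626 CPM in batch B, the highest of all 42 genes. SSR3 followed at 373 and 391 CPM in batch A and 372, 361 and 381 CPM in batch B, where the spread across all 5 libraries was small. SSR2 and SSR1, at 187 to 285 and 211 to 251 CPM, were not separable.

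None of the 5 signal peptidase genes was called, although all had lower mean CPM in batch B. SPCS1, a small accessory subunit, had 361 and 330 CPM in batch A and 257, 266 and 323 CPM in batch B. SEC11A, a catalytic subunit, had 271 and 285 CPM in batch A and 203, 235 and 234 CPM in batch B. SEC11C, the alternative catalytic subunit, had 167 and 156 CPM against 123, 95.6 and 143 CPM. SPCS2, an accessory subunit, had 170 and 148 CPM against 85.6, 104 and 140 CPM. For these 4 genes the batches did not overlap. All batch B libraries also lay under both of batch A for 17.8% of all 9215 tested genes. SPCS3, at 112 and 131 CPM against 88.3, 78.2 and 114 CPM, overlapped through batch B library 3. That library lay closest to batch A for 4 of the 5 genes, SEC11A being the exception.

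Of the oligosaccharyltransferase genes, OSTC (a subunit that links the enzyme to the translocon) gave 227 and 236 counts in the batch A libraries against 79, 119 and 154, or 331 and 294 CPM against 211, 206.8 and 225 CPM. All 3 batch B libraries lay well below both of batch A. DAD1, a small core subunit, had 531 and 534 CPM in batch A and 407, 447 and 432 CPM in batch B, a gap wider than the spread in either batch. RPN2 (ribophorin II) had 319 and 273 CPM against 289, 299 and 286 CPM, and overlapped. RPN1 (ribophorin I) ranged from 177 to 254 CPM and overlapped, and DDOST from 142 to 212 CPM, with every batch B library under batch A. The count ratio of RPN2 to OSTC was 0.965 and 0.928 in batch A against 1.37, 1.45 and 1.27.

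**Figure D2:**
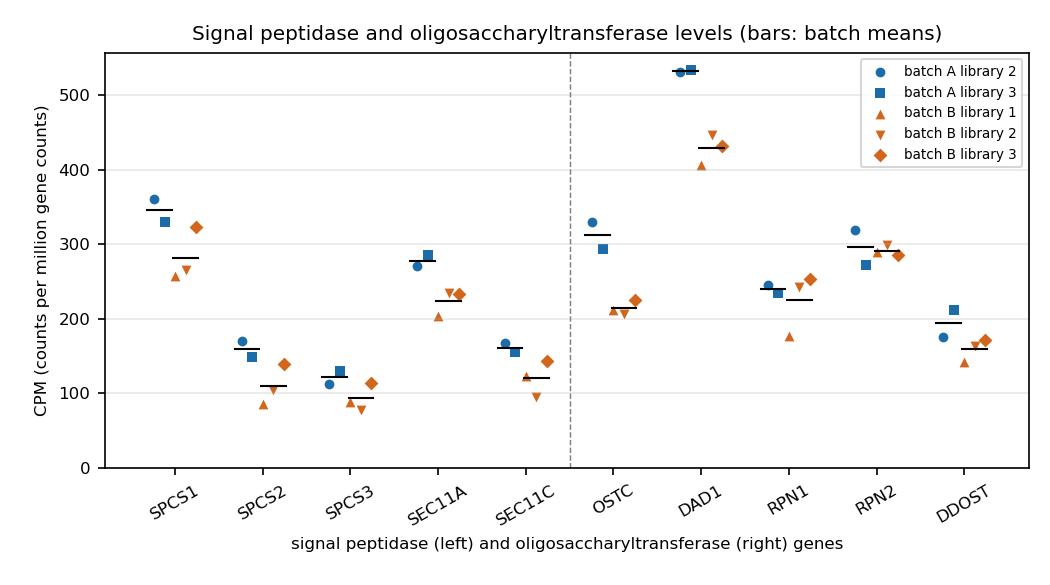
CPM of the 5 signal peptidase genes (left of the dashed line) and the 5 oligosaccharyltransferase genes (right) in each library, with horizontal bars at the mean of each batch. OSTC at 206.8 to 225 CPM and DAD1 at 407 to 447 CPM in batch B lie clear of batch A, while RPN1 and RPN2 overlap.

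The batches were compared by edgeR's quasi-likelihood test, fitted on all genes that passed a filter on low counts, with Benjamini-Hochberg adjustment over all of them and a call at an adjusted p under 0.05. OSTC fell 1.42-fold in batch B, and it was the only one of the 40 tested ER genes to be called. Of all 9215 tested genes, 4.2% were called (2.05% lower and 2.15% higher in batch B), so 1 of 40 genes is near the background. The log2 fold change of OSTC was -0.51 (SE 0.12, edgeR adjusted p = 0.0014), from 312 ± 25.9 CPM in batch A (SD, n = 2) to 214 ± 9.33 CPM in batch B (SD, n = 3). Without batch A library 2 it was -0.40 and the call was lost (edgeR adjusted p = 0.162). OSTC has a transcript of 1077 bases with 40% GC. With trends of fold change on GC content and transcript length removed, a setting added after the data were seen, its log2 fold change was -0.36 and it was not called (edgeR adjusted p = 0.0745). Among all genes, 1.43% were called without batch A library 2 and 2.31% after removal of the trends. The call of OSTC was kept with DESeq2 size factors (4.07% of all genes called), library totals (4.45%), the DESeq2 Wald test (1.97%), limma-voom (3.85%), no filter (1.29%), a mean count of at least 20 (6.81%), a block on the column number (4.28%) and thinning to the smallest library (2.27%). Dropping batch A library 3 (1.58%), or batch B library 1 (3.36%), 2 (2.25%) or 3 (3.81%), also left it called.

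The other 39 tested genes did not pass, and their intervals bound the change. SPCS2 was nearest to the threshold, at a log2 fold change of -0.45 (95% interval -0.75 to -0.15, edgeR adjusted p = 0.067), and was called without batch B library 3 at -0.66 (edgeR adjusted p = 0.0152). PDIA6 followed at -0.32 (-0.53 to -0.10, edgeR adjusted p = 0.0785). With library totals in place of scaling factors PDIA6 and DAD1 were called too, at -0.34 and -0.31 (edgeR adjusted p = 0.033 and 0.0356). SEL1L had the highest value, 0.49 (-0.11 to 1.10, edgeR adjusted p = 0.445). For HSPA5, the usual readout of ER stress, the log2 fold change was -0.23 (-0.45 to -0.0041, edgeR adjusted p = 0.292). Narrow intervals around 0 were found for SSR4 (-0.22 to 0.21), SSR3 (-0.23 to 0.19) and RPN2 (-0.22 to 0.23), and a wide one for DNAJB9 (-0.53 to 1.27).

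**Figure D3:**
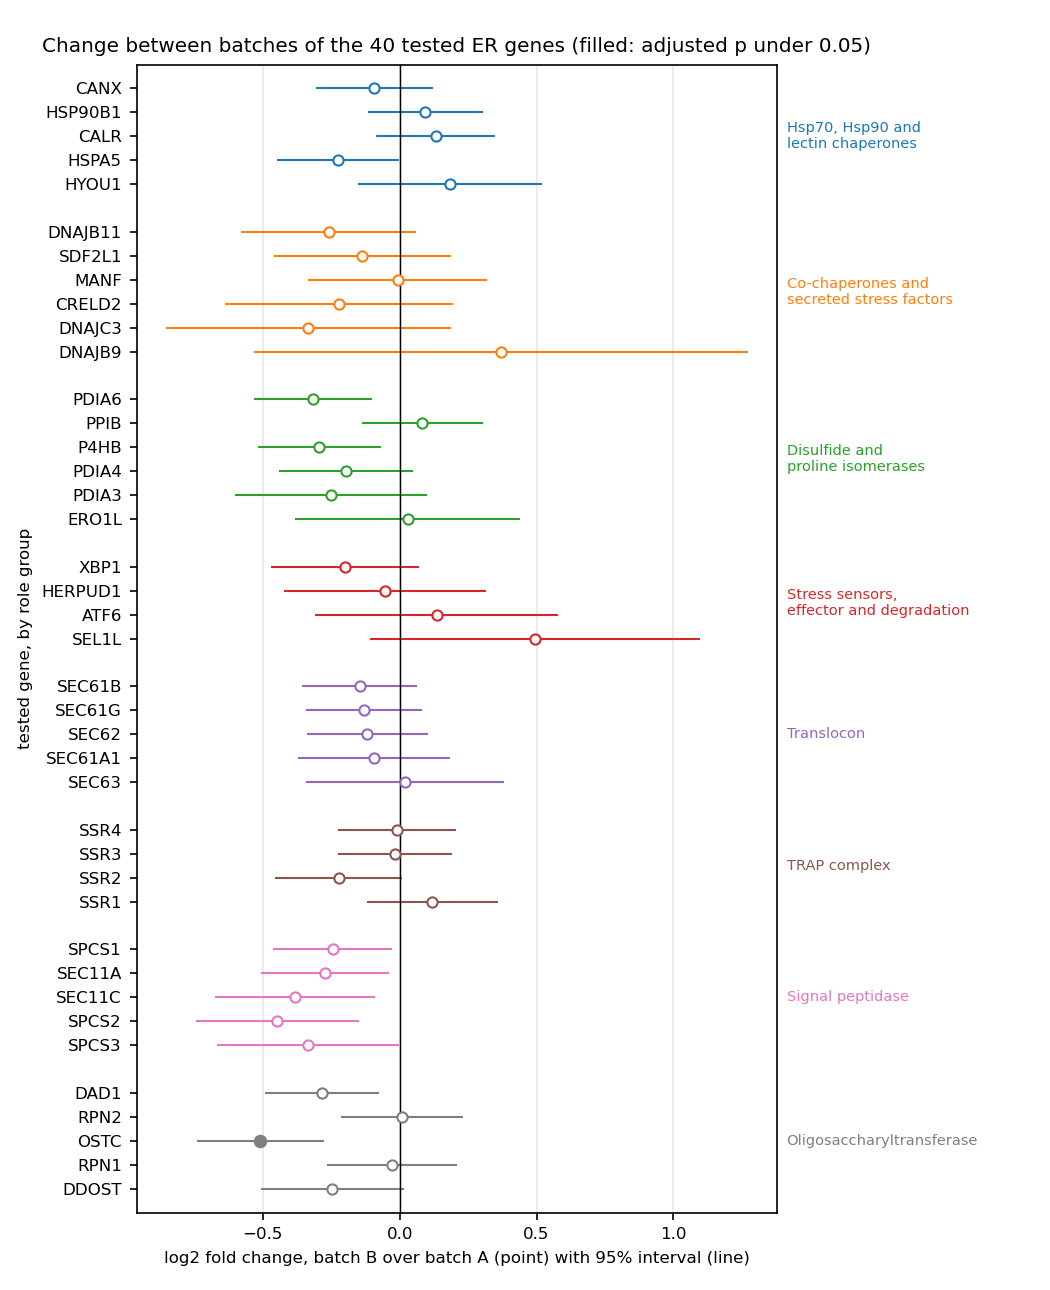
Log2 fold change of batch B over batch A for the 40 tested ER genes by role group, with 95% intervals from edgeR as lines and the called gene filled. OSTC at -0.51 is the filled point, all 5 signal peptidase genes lie left of 0, and SEL1L at 0.49 is farthest right.

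The log2 fold changes leaned to lower values in batch B. Of the 40 tested genes 29 were negative (72.5%), with a median of -0.13, against 49.6% and a median of 0.00 over all tested genes. For genes with a mean count of at least 20, a closer match in abundance, the shares were 74.4% of 39 members and 51.6% of 5974 genes. This match was only partial. Of the 42 genes 31 averaged at least 100 CPM, while SPCS3, at 104.6 CPM, already ranked 2041 among all genes. An unadjusted edgeR p under 0.05 was found for 10 of the 40, all lower in batch B, where 8.13% of all tested genes were lower and 8.3% higher by that rule. All batch B libraries lay under both batch A libraries in CPM for 18 of the 40 (45.0%), against 17.8% of all tested genes. They lay above them for 2 (5.0%), CALR and SEL1L, against 13.5%. Among the 5974 genes with a mean count of at least 20, 21.3% lay under and 13.9% above. By the unadjusted edgeR p, 10.7% of those 5974 were lower and 9.47% higher. Genes measured in the same libraries are not independent, so these counts describe the set and carry no test.

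By role, the lean differed among the groups, and these differences were not tested. All 5 signal peptidase genes were negative, with log2 fold changes of -0.45 to -0.25 and a median of -0.34. An unadjusted edgeR p under 0.05 was found for all 5, though none was called. By that unadjusted rule 8.13% of all tested genes were lower in batch B, and 10.7% of those with a mean count of at least 20. The median was -0.25 for the oligosaccharyltransferase, -0.22 for the disulfide and proline isomerases and -0.18 for the co-chaperones and secreted stress factors. It was -0.12 for the translocon, -0.01 for the TRAP complex, 0.04 for the 4 tested genes of sensing and degradation and 0.09 for the chaperones. The 10 genes with an exact match to an ER stress element had a median of -0.11 (range -0.32 to 0.18). For the 27 tested genes without such a match it was -0.13 (-0.51 to 0.49). The medians were close, their difference was not tested, and none of the 10 was called.

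As a share of all gene counts, the 42 genes took 0.979% in batch A library 2 (95% exact binomial interval 0.956 to 1.00) and 1.00% in library 3 (0.9788 to 1.022). They took 0.870% (0.840 to 0.900), 0.878% (0.855 to 0.903) and 0.918% (0.895 to 0.940) in batch B libraries 1, 2 and 3. The means were 0.990% ± 0.0151 (SD, n = 2) and 0.889% ± 0.0255 (SD, n = 3), a gap of 0.101 percentage points that exceeds the spread in either batch. Signal peptidase genes took 0.108% and 0.105% in batch A against 0.0757%, 0.0778% and 0.0953%, at 0.778 times the mean of batch A. Oligosaccharyltransferase genes took 0.160% and 0.155% against 0.123%, 0.136% and 0.137%. The 5 chaperones took 0.177% and 0.174% against 0.174%, 0.170% and 0.169%, the only role group whose batches overlapped. Only for the oligosaccharyltransferase did the intervals of the nearest libraries not meet, ending at 0.1459% in batch B library 3 and starting at 0.1462% in batch A library 3. For signal peptidase they overlapped, with 0.0881 to 0.1029% in batch B library 3 and 0.0980 to 0.1123% in batch A library 3. The other groups that separated did so by less than the counting error of their nearest libraries. Sensing and degradation, for example, took 0.0378% in batch B library 3 (0.0333 to 0.0427) against 0.0381% in both batch A libraries. Shares of gene counts fall when other genes take more, and they were not scaled for that.

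**Figure D4:**
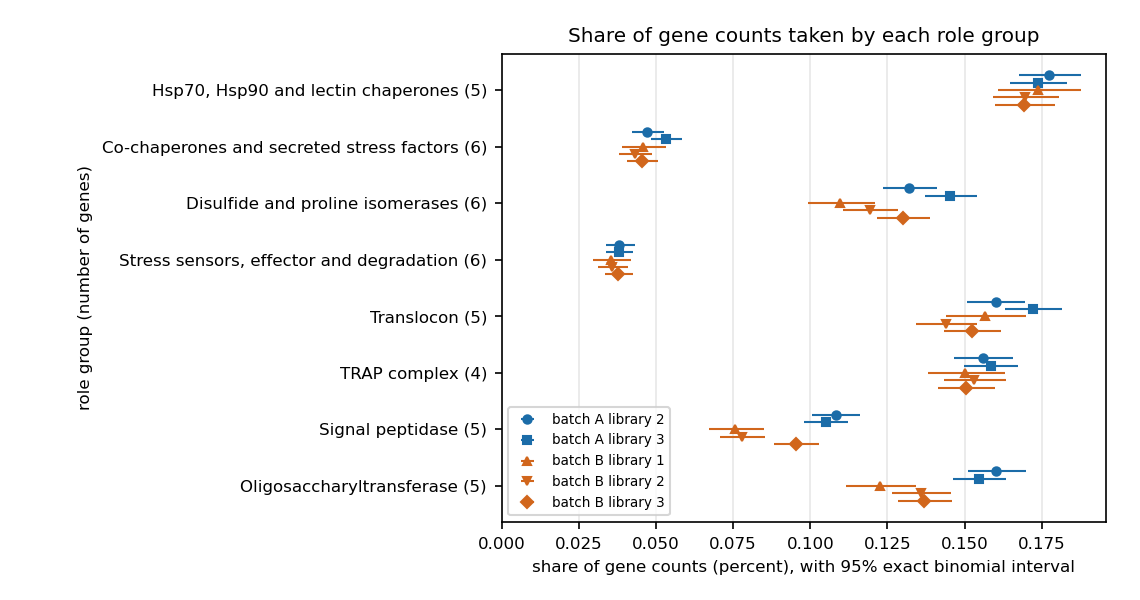
Share of gene counts, in percent, taken by each of the 8 role groups in each library, with 95% exact binomial intervals as lines. Signal peptidase at 0.0757 to 0.0953% in batch B lies below 0.105% in batch A, while the chaperone group sits near 0.17% in every library. The intervals of signal peptidase in batch B library 3 and batch A library 3 overlap.

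GC content and transcript length were set beside these values, and their part in them was not tested beyond the trend removal. Across all tested genes with a match, log2 fold changes had a Spearman correlation of 0.221 with GC content and 0.058 with length (n = 8976 genes). Across the 40 ER genes the values were 0.031 and 0.340, a description over genes of the same libraries. After both trends were removed 26 of the 40 were negative and the median was -0.11. Rows for processed copies named after members were nearly empty, with 1 count in all for OSTCP4, 17 for SPCS2P4 and 7 for SSR4P1 against 815, 424 and 2108 for OSTC, SPCS2 and SSR4. Reads of near-identical copies could still have been shared, since the counting rule is not given in the sources used here.

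Other genes of the same pathways, 112 in 7 lists, gave 102 tested genes, of which 3 rose and 3 fell in batch B (2.94% each way), near the background. Their values leaned the same way as those of the 40 genes, to a lesser degree, and this difference was not tested. Of the 102, 61.8% were negative, with a median log2 fold change of -0.10, and 25.5% had all batch B libraries under batch A against 12.7% above. Their share of gene counts was 1.24% in both libraries of batch A against 1.12%, 1.16% and 1.14%. The gap in means was 0.102 percentage points, against 0.101 for the 42 genes, which start from a smaller share. In relative terms batch B stood at 0.918 times batch A for the related genes and 0.898 times for the 42. Of 20 tested genes of ER-associated degradation 1 fell, the lectin ERLEC1, at a log2 fold change of -0.87 (edgeR adjusted p = 0.0212). Of the 10 genes of the ER membrane complex, which inserts membrane proteins, EMC6 fell, by 0.46 on the log2 scale (edgeR adjusted p = 0.0157). Among 13 other genes of glycosylation and glycan trimming 2 rose, and both encode subunits of glucosidase II, which trims glucose from new glycans before calnexin and calreticulin bind. GANAB, the catalytic subunit, had 32.0 and 51.1 CPM in batch A and 83.0, 85.2 and 68.6 CPM in batch B, a 1.87-fold rise (edgeR adjusted p = 0.00646). PRKCSH, the regulatory subunit, had 109 and 142 CPM in batch A and 182, 172 and 174 CPM in batch B, a 1.41-fold rise (edgeR adjusted p = 0.0255). For both, every batch B library lay above batch A.

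Of 10 other co-chaperones tested, DNAJC1, an Hsp40 of the ER membrane, rose 2.23-fold (edgeR adjusted p = 0.0173) and TOR1A, an ATPase of the ER lumen, fell 1.99-fold (edgeR adjusted p = 0.0042). None of 15 tested genes of targeting to the ER was called, the most abundant being SRP14 of the signal recognition particle, at 511 to 590 CPM. The same held for 20 oxidoreductases and isomerases, led by the peroxiredoxin PRDX4 at 407 to 549 CPM, and for 14 stress response genes, led by TMBIM6 at 431 to 461 CPM. These 3 lists held 4, 4 and 2 genes with an unadjusted edgeR p under 0.05, a rule that 16.4% of all tested genes met. In the same order, 2, 4 and 1 of them were lower in batch B and 2, 0 and 1 higher. Several of the calls of related genes were lost in other settings. When each of the 5 libraries was dropped in turn, GANAB and EMC6 kept theirs in 3, ERLEC1, PRKCSH and TOR1A in 2 and DNAJC1 in 1, while OSTC was called in 4. Thinning all libraries to the smallest ended every one of these calls but that of GANAB, with edgeR adjusted p of 0.118 for ERLEC1 and PRKCSH, 0.217 for TOR1A, 0.251 for EMC6 and 0.552 for DNAJC1, whose log2 fold change was then 0.58. Removal of the GC and length trends ended those of ERLEC1 (edgeR adjusted p = 0.0562) and PRKCSH (0.122), and fitting without a filter that of PRKCSH (0.105). DESeq2 called OSTC and none of these 6, of which DNAJC1 got no adjusted p from it.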

How the data were processed

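The deposited table holds whole-number counts per gene symbol for 5 libraries, as made by the authors which were not normalized. The authors trimmed with cutadapt 1.2.1 and ran STAR 2.4.0a, naming hg19 and GRCh37, per the submitters' processing notes. How reads were counted per gene, by strand or by molecular identifier, is not given in the sources used here. The run name that starts a column and a title set its batch. The 52 spike-in rows were left out.

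edgeR 4.0.16 (R 4.3.3) was fitted on all gene rows with TMM scaling, filterByExpr by batch and batch as the only term. This kept 9215 genes with 97.1% of gene counts. The SE is |log2 fold change| over the root of its F statistic. Alternatives were DESeq2 1.42.0, limma-voom (limma 3.58.1), other scalings, other filters, thinning and leaving out each library. Transcript length and GC content came from GENCODE 29, matched by name for 18845 gene rows, and promoters from RefSeq. PDIA3, SPCS1 and RPN1 had no promoter entry.

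The members, lists, tests and naming rule were chosen with earlier results of these data known. Named with full values were called genes, the 2 most abundant per role group, the sensors and XBP1, the 3 largest fold changes, called related genes and, in lists without a call, the most abundant gene. HEK293 and other cell type markers were listed too. Genes beyond that rule were named after their values were seen.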

Additional observations from a re-analysis of the deposited data

How the results depend on the processing

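The numbers 2 and 3 end columns in both batches, but batch A is labelled as replicates 1 and 2, so these numbers were not tied to the labels. Deviations from the batch means correlated at 0.011 between the libraries numbered 2 and -0.017 between those numbered 3 (9215 genes). Batch A has 2 libraries, so its deviations are mirror images. Pairs of unlike number gave -0.011 and 0.017, and with batch B library 1 -0.023 and 0.023. Counting error also weighs on such gene-by-gene deviations. These values therefore do not show whether libraries of the same number share an origin. A replicate block on the column number, added after seeing the data, called 394 genes in all and 2 ER genes, OSTC and DAD1. The log2 fold change of DAD1 was then -0.27 (edgeR adjusted p = 0.0268). The block ended the calls of ERLEC1 (edgeR adjusted p = 0.0525) and PRKCSH (0.0666). Without the block, the count of called ER genes, 1, was 3 with library totals, 0 once trends on GC and length were taken out (an alternative chosen after seeing the data) and 0 to 2 over the 5 fits that left out a library. The genes called over the whole table, 387, were 104 with the DESeq2 Wald test, 164 after thinning to the smallest library, 206 without those trends, and 138 to 333 over the fits that left out a library. The median log2 fold change of the ER genes kept its sign in all 14 alternatives, and OSTC was called in 12 of 14 (log2 fold change -0.61 to -0.36). CPM per kb of transcript, also added later, kept the leading gene in 5 of 8 role groups. The cause of these differences was not tested. Where batch A kept 1 library, its spread was taken from batch B. Depth limited DNAJB9, EIF2AK3 and ERN1 most, with 22, 19 and 10 counts over batch A.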
